A study of Rattus norvegicus with 9 samples.

Results

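Transcripts of 40 genes for non-collagen matrix proteins, matrix-associated proteins and fibroblast markers were followed in the left ventricle of Sprague-Dawley rats. The genes were taken by name from the 3 deposited expression tables, the values of all transcripts with the same gene name were summed, and genes with a mean of at least 1 CPM (a count scaled to the size of its library) over the 9 libraries were kept. Of the 22608 gene names, 39 listed genes were found and 38 were kept. Pcolce2 matched no gene name. Vit, which encodes vitrin, averaged 0.0611 CPM and was below the limit, and the kept genes nearest to it were Thy1 at 1.65 CPM and Mfap2 at 4.23 CPM. For description the 38 genes were put into 4 classes: 17 elastic fibre proteins and glycoproteins, 8 proteoglycans, 9 fibroblast markers and collagen-processing proteins, and 4 insulin-like growth factor (IGF) binding proteins. Matrix proteins make up the first 2 classes. The third also holds the cell surface receptors Pdgfra and Ddr2, the transcription factor Tcf21 and the actin-severing protein gelsolin (Gsn).

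Rats aged 8 weeks at the start received saline, angiotensin II (Ang II) or Ang II with sodium butyrate (NaBu) for 28 days, with 3 libraries in each of the 3 groups. Both treated groups carried Ang II, so the comparison between them is of Ang II with and without NaBu, and no group with NaBu alone was analysed here. Ang II constricts vessels and promotes fibrosis of the heart. NaBu is a salt of butyrate, a fatty acid produced by gut bacteria and an inhibitor of histone deacetylases. The labels give neither a dose nor a route. The title of the series names myocardial fibrosis, for which no measure other than RNA was analysed here. Whether each library stands for 1 animal is not stated in the labels. The p-values thus set group differences against the spread between libraries, which may be technical. The 9 totals ran from 29284780 to 49865446 estimated counts.

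Elastic fibres consist of an elastin core on a scaffold of fibrillin microfibrils, and fibulins, microfibril-associated proteins and emilins link these parts. Latent TGF-beta binding proteins (LTBPs) anchor stored TGF-beta to the same microfibrils. Small leucine-rich proteoglycans such as decorin, biglycan and lumican bind collagen fibrils and govern their spacing, and versican is a large chondroitin sulphate proteoglycan that binds hyaluronan. In the heart these proteins are made mainly by fibroblasts, and fibrosis is known for a rise in many of them.

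The tissue label was checked against markers. The 12 cardiomyocyte markers summed to 125798 to 181849 CPM with saline, 152962 to 162338 CPM with Ang II and 172168 to 186114 CPM with NaBu. Tnmd, a defining gene of tendon, the tissue that the design text of the series describes, was at most 0.319 CPM. The 6 tendon markers, which include Fmod and Thbs4, summed to 18.3, 38.9 and 159 CPM in saline replicates 1, 2 and 3, 11.8 to 19.7 CPM with Ang II and 29.9, 69.2 and 44 CPM in NaBu replicates 2, 4 and 6. Saline replicate 2 stood apart: 10 atrial markers summed to 6037 CPM in it, against 111 to 361 CPM in the other 8 libraries, and its cardiomyocyte sum was the lowest. Atrial myosin light chain Myl7 was at 0.18, 789 and 27.2 CPM in saline replicates 1, 2 and 3, and at most 3.98 CPM elsewhere. The part of atrial tissue in the results below was not tested. Counts of direction and medians against saline are given with and without this library. Counts of highest libraries, of groups without overlap, of unadjusted p and of DESeq2 calls include it. In bulk tissue, fewer cells of a type and less RNA per cell cannot be told apart.

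The main feature of the 38 genes was that saline replicates 2 and 3 held their highest levels. Saline replicate 2 was the highest library for 23 of the 38 genes (60.5%), against 20.8% of all 15467 genes tested. Saline replicate 3 was the highest for 14 (36.8%), against 12.4% of all genes. The remaining gene, Emilin2, was highest in NaBu replicate 2. No gene of the 38 was highest in saline replicate 1 or in any Ang II library. On a log2 scale relative to each gene's mean over the 9 libraries, the median of the 38 genes was -0.14, 0.56 and 0.39 in saline replicates 1, 2 and 3. It was -0.13, -0.15 and -0.23 in the Ang II libraries and -0.13, 0.06 and -0.19 in NaBu replicates 2, 4 and 6. Saline replicate 1 thus lay at the level of the Ang II libraries.

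**Figure D1:**
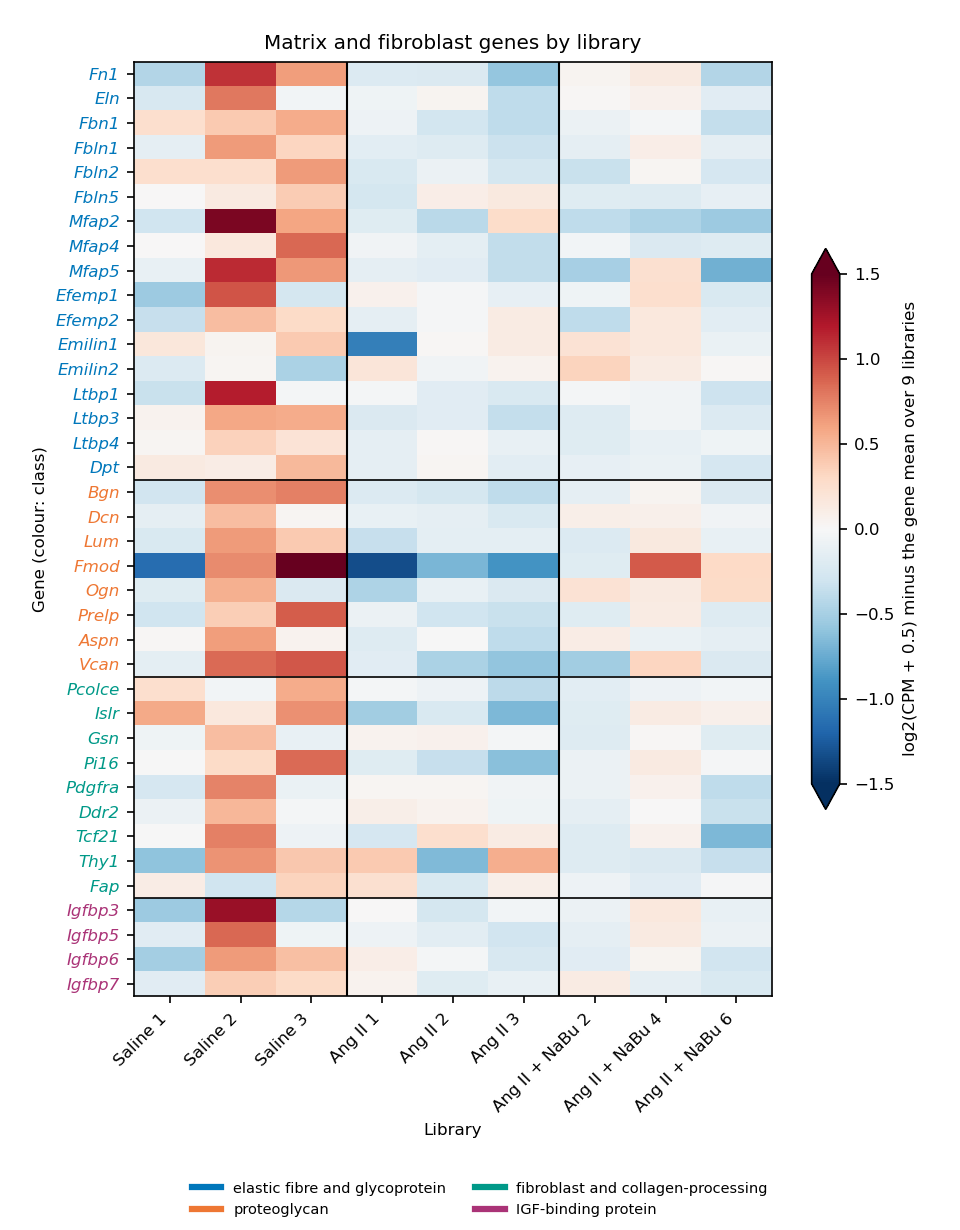
Level of each of the 38 genes (rows) in each of the 9 libraries (columns), as log2(CPM + 0.5) minus the gene's mean over the libraries; colours are capped at 1.5 in each direction. Red fills the columns of saline replicates 2 and 3, which hold the highest value of 37 genes, and saline replicate 1 is mostly pale or blue.

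Some genes stood farther above saline replicate 1 in replicate 2, and others in replicate 3. Igfbp3, a carrier of IGF in serum and tissue, was 3.61 times as high in saline replicate 2 as in replicate 1, but only 1.08 times as high in replicate 3. Ltbp1 was 2.85 and 1.23 times as high in these libraries, and Efemp1 (fibulin-3) 2.85 and 1.22 times. Mfap2 (3.64 and 1.99 times), Thy1 (3.26 and 2.62 times) and Fn1 (2.87 and 2.1 times) were well above replicate 1 in both. Fmod (fibromodulin, a collagen-binding proteoglycan) had the largest ratio in both, at 3.86 times in replicate 2 and 11.8 times in replicate 3. Prelp, another leucine-rich proteoglycan, stood at 1.59 and 2.32 times, and Pi16, a marker of adventitial fibroblasts, at 1.23 and 1.82 times. Levels at least 1.5 times those of replicate 1 were found for 23 genes in replicate 2, for 13 in replicate 3 and for 11 in both. The 4 IGF-binding proteins were all highest in replicate 2, while the 8 proteoglycans were split evenly, 4 and 4. The coefficient of variation between saline libraries had a median of 30% over the 38 genes and 17.4% over all genes. With Ang II it was 9.83% against 12%, and with NaBu 10.7% against 11.5%. The median spread of the 38 genes was above that of all genes with saline and below it in both treated groups.

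**Figure D2:**
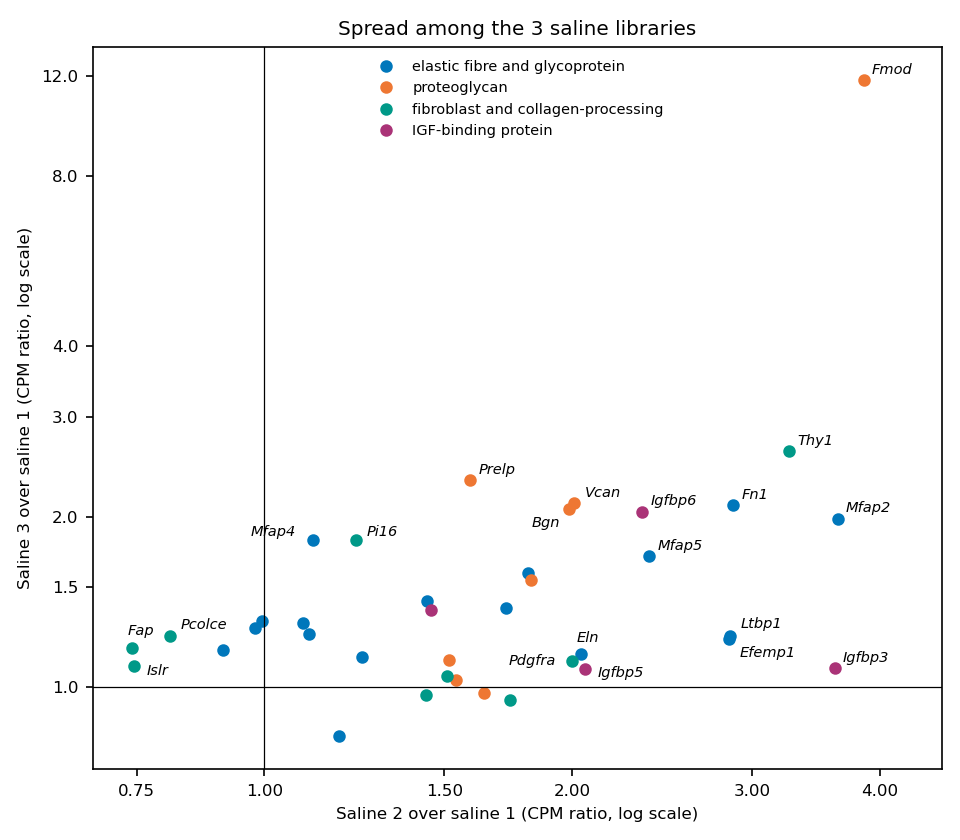
Ratio of the CPM in saline replicate 2 (horizontal, log scale) and in saline replicate 3 (vertical, log scale) to that in saline replicate 1, for the 38 genes, coloured by class. Fmod lies highest at 11.8 times in replicate 3, while Igfbp3, Ltbp1 and Efemp1 lie far to the right and close to the horizontal line of no difference.

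Ang II was first set against saline, which addresses how matrix transcripts stood after 28 days of the hormone. The mean of 37 of the 38 genes was lower with Ang II than with saline, with a median log2 difference of -0.45 where the median of all genes was -0.005 and 51% of all genes were lower. No gene passed the test. edgeR's quasi-likelihood test with Benjamini-Hochberg adjustment, the source of all adjusted p-values below unless another tool is named, called 0 of 38 genes and 0% of all 15467 genes. At an unadjusted p under 0.05 there were 18 of the 38 genes, where 5.94% of all genes reached it, and DESeq2 called 6 of the 38 genes, all lower with Ang II, where it called 0.369% of all genes. These 6 were Fbln2, Fbn1, Islr, Ltbp3, Pi16 and Vcan. The 3 Ang II libraries lay below all 3 saline libraries for 12 of the 38 genes, against 4.97% of all genes. Without saline replicate 2, 28 of the genes were lower and the median was -0.22. With saline replicates 2 and 3 both left out, 18 were lower and 20 higher and the median was 0.0023, from 1 saline library that is assumed to vary like the other groups. These 2 libraries held the highest level of 37 of the 38 genes, so an upward shift of the median follows from their removal. Differences from saline replicate 1 alone, here and below, describe that library and are no independent check. The 9 genes that turned to higher with Ang II without saline replicate 2 were Ddr2, Efemp1, Eln, Gsn, Igfbp3, Ltbp1, Pdgfra, Tcf21 and Thy1, of which 5 belong to the 9 fibroblast genes. Without saline replicate 3, Fap and Thy1 turned, and without saline replicate 1 none did. Markers of other cells moved in the same comparison: 9 of 10 macrophage markers had a lower mean with Ang II (median log2 -0.39, 4 without overlap), as had all 11 activated fibroblast markers at 1 CPM or more (median -0.92, 7 without overlap). Their part in the result was not tested.

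Among the elastic fibre genes, Fbn1 (fibrillin-1, the main microfibril protein) was at 457, 505 and 568 CPM in saline replicates 1, 2 and 3, 365, 319 and 296 CPM in Ang II replicates 1, 2 and 3, and 363, 378 and 300 CPM in NaBu replicates 2, 4 and 6. All saline libraries were above all others. The mean was 327 ± 35 CPM with Ang II against 510.3 ± 55.6 CPM with saline (mean ± SD, n = 3, here and below; log2 -0.64, SE 0.131, adjusted p = 0.443). With saline replicate 1 as the only saline library the difference was -0.49. Ltbp3, a latent TGF-beta binding protein, was at 59.9, 86.3 and 84.9 CPM with saline, 49.5, 51 and 44.9 CPM with Ang II and 50.2, 55.4 and 49.8 CPM with NaBu. All its saline libraries were above all treated ones (log2 -0.67, SE 0.139, adjusted p = 0.445). Fbln2 (fibulin-2, which bridges fibrillin and other matrix ligands) was at 58.5, 58.2 and 76.6 CPM with saline, 41.6, 46 and 40.9 CPM with Ang II and 38.8, 49.9 and 41.1 CPM with NaBu, again with no overlap between saline and either treated group.

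Mfap5, a microfibril-associated glycoprotein, was at 17.7, 42.1 and 30.2 CPM with saline, 17.3, 16.9 and 14.6 CPM with Ang II and 13.3, 22.7 and 11.4 CPM with NaBu. Its Ang II libraries lay just below saline replicate 1 (log2 -0.88, SE 0.314, adjusted p = 0.744), and most of the distance came from replicates 2 and 3. The related Mfap2 was at 2.97, 10.8 and 5.89 CPM with saline, 3.25, 2.73 and 4.67 CPM with Ang II and 2.76, 2.59 and 2.41 CPM with NaBu, with saline replicate 1 inside the range of Ang II. Fn1 (fibronectin, the adhesive glycoprotein of provisional matrix) was at 137, 395 and 288 CPM with saline, 162, 160.2 and 125 CPM with Ang II and 192, 204 and 137 CPM with NaBu. Its groups overlapped (log2 -0.88, SE 0.314, adjusted p = 0.744), and with saline replicate 1 alone the difference was 0.12. Eln (elastin) was at 78.7, 161 and 90 CPM with saline, 88.5, 95.9 and 71.4 CPM with Ang II and 93.8, 96.8 and 82.2 CPM with NaBu, where only saline replicate 2 was high (log2 -0.37, SE 0.235, adjusted p = 0.923). Without that library the difference was 0.010. Ltbp1 was at 91.3, 261 and 112 CPM with saline, 112, 102 and 98.1 CPM with Ang II and 113, 110.4 and 92.9 CPM with NaBu and showed the same single high library. Emilin2, an elastic fibre glycoprotein, was the 1 gene with a higher mean with Ang II, at 11.2, 13.3 and 9.21 CPM with saline, 14.9, 12.5 and 13.5 CPM with Ang II and 16.6, 14.2 and 13.1 CPM with NaBu, and its groups overlapped. Emilin1 was lowest in Ang II replicate 1, at 18.5, 38.7 and 41.6 CPM in the Ang II libraries against 43.2, 39.3 and 50.2 CPM with saline, and the groups overlapped.

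The other 7 genes of the elastic fibre class included 4 whose Ang II libraries were below all saline libraries. Ltbp4, the LTBP that assists elastin assembly, was at 379, 472 and 429 CPM with saline, 338, 376 and 344 CPM with Ang II and 328, 344 and 356 CPM with NaBu. Dpt (dermatopontin, a collagen-binding protein) was at 207, 203 and 264 CPM with saline, 171, 191 and 168 CPM with Ang II and 172, 175 and 158 CPM with NaBu. Mfap4 was at 40.6, 45.3 and 73.8 CPM with saline, 39, 36.4 and 31.1 CPM with Ang II and 39.2, 34.8 and 35.3 CPM with NaBu. In these 3 the NaBu libraries also stayed below saline. Fbln1 was at 84.6, 146 and 117 CPM with saline, 83.4, 81.6 and 74.4 CPM with Ang II and 84.7, 99.3 and 84.7 CPM with NaBu, where only Ang II lay below all of saline. Fbln5, which guides elastin onto microfibrils, was at 35.4, 38.6 and 46 CPM with saline, 29.2, 37.7 and 39.1 CPM with Ang II and 31, 30.9 and 32.2 CPM with NaBu. Its NaBu libraries were below saline, and its Ang II libraries overlapped both. Efemp1 was at 20.4, 58.2 and 24.9 CPM with saline, 31.3, 29.6 and 27.6 CPM with Ang II and 28.7, 36 and 25.5 CPM with NaBu, and Efemp2 (fibulin-4, needed for elastin cross-linking) at 5.88, 10.6 and 9.36 CPM with saline, 6.89, 7.49 and 8.31 CPM with Ang II and 5.69, 8.54 and 6.74 CPM with NaBu. In both saline replicate 2 was the highest library and saline replicate 1 was below every Ang II library.

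All 8 proteoglycans had a lower mean with Ang II than with saline, with a median log2 difference of -0.59 over the class and none called. Vcan (versican) was at 107, 215 and 227 CPM in saline replicates 1, 2 and 3, 106, 85.6 and 78.9 CPM in Ang II replicates 1, 2 and 3, and 82.8, 149 and 102 CPM in NaBu replicates 2, 4 and 6. Saline replicate 1 exceeded the highest Ang II library by little, and replicates 2 and 3 were far above it (90 ± 13.9 against 183 ± 66 CPM; log2 -1.02, SE 0.286, adjusted p = 0.719; DESeq2 adjusted p = 0.0332). Bgn (biglycan) was at 184, 365 and 381 CPM with saline, 195, 187 and 173 CPM with Ang II and 206, 231 and 193 CPM with NaBu, with saline replicate 1 inside the Ang II range (log2 -0.75, SE 0.227, adjusted p = 0.74). Without saline replicate 1 it was called lower at log2 -1.01, as was Ltbp3, where edgeR called 0.0443% of all genes, and with that library alone the difference was 0.0039. Dcn (decorin) was at 727, 1100.3 and 811 CPM with saline, 739, 722 and 679 CPM with Ang II and 847, 836 and 769 CPM with NaBu (log2 -0.30, SE 0.146, adjusted p = 0.863), and Lum (lumican) at 145, 265 and 225 CPM with saline, 134, 153 and 154 CPM with Ang II and 148, 189 and 157 CPM with NaBu (log2 -0.52, SE 0.193, adjusted p = 0.754). In both, saline replicate 1 lay within the Ang II libraries or next to them. Fmod was at 5.19, 20 and 61.4 CPM with saline, 4.52, 7.31 and 6.26 CPM with Ang II and 10.6, 23.3 and 14.9 CPM with NaBu, with the highest and the lowest saline libraries far apart. Ogn was at 168, 276 and 165 CPM with saline, 139, 178 and 164 CPM with Ang II and 223, 210.3 and 234 CPM with NaBu, with only saline replicate 2 well above Ang II. Prelp was at 50.5, 80.3 and 117 CPM with saline, 58.5, 50.4 and 49 CPM with Ang II and 54.8, 68 and 54.2 CPM with NaBu, with saline replicate 1 inside the Ang II range. Aspn (asporin) was at 16.1, 24.8 and 16.6 CPM with saline, 13.9, 15.8 and 12.1 CPM with Ang II and 17.2, 14.8 and 14.5 CPM with NaBu, with all saline libraries just above Ang II.

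Of the 9 fibroblast and collagen-processing genes, Islr and Pi16 differed most. Islr, an immunoglobulin-domain protein of mesenchymal cells, was at 28.5, 21.2 and 31 CPM in saline replicates 1, 2 and 3, 13.1, 16.2 and 11.8 CPM in Ang II replicates 1, 2 and 3, and 16.7, 20.8 and 20.1 CPM in NaBu replicates 2, 4 and 6. The lowest saline library was above the highest Ang II library (13.7 ± 2.27 against 26.9 ± 5.06 CPM; log2 -0.98, SE 0.173, adjusted p = 0.443). Islr was also high in saline replicate 1, and with that library alone the log2 difference was -1.06. Pi16 was at 33.6, 41.4 and 61.1 CPM with saline, 29.7, 26.5 and 21.6 CPM with Ang II and 31.8, 37.2 and 33.4 CPM with NaBu, with no overlap between saline and Ang II (log2 -0.81, SE 0.202, adjusted p = 0.703). Among the surface receptors that mark fibroblasts, Pdgfra was at 151, 302 and 168 CPM with saline, 183, 183 and 173 CPM with Ang II and 169, 188 and 138 CPM with NaBu, and Ddr2, a collagen receptor, at 172, 260.2 and 180.2 CPM with saline, 196, 190.2 and 177 CPM with Ang II and 168, 185 and 146 CPM with NaBu. Both were highest in saline replicate 2 alone. Tcf21, a transcription factor of the fibroblast lineage, was at 8.28, 14.4 and 7.86 CPM with saline, 6.89, 10 and 9.08 CPM with Ang II and 7.22, 8.72 and 5.01 CPM with NaBu. Gsn was at 1318, 1898 and 1277 CPM with saline, 1428, 1441 and 1353 CPM with Ang II and 1212, 1394 and 1219.6 CPM with NaBu, and Fap, a membrane protease of activated fibroblasts, at 11.2, 8.32 and 13.2 CPM with saline, 12.3, 8.71 and 11 CPM with Ang II and 9.79, 9.11 and 10.2 CPM with NaBu, each with overlapping groups. Thy1, the lowest of the 38 genes, ranged from 0.784 to 2.74 CPM. Pcolce, which speeds the cleavage of procollagen, was at 33, 26.6 and 40.7 CPM with saline, 26.9, 26.1 and 20.9 CPM with Ang II and 24.6, 26.2 and 26.8 CPM with NaBu.

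The 4 IGF-binding proteins also had lower means with Ang II. Igfbp3 was at 46.4, 167 and 50.1 CPM with saline, 68.3, 56.4 and 66.1 CPM with Ang II and 63.9, 76 and 62.7 CPM with NaBu, so that saline replicate 2 alone was above the treated libraries (log2 -0.47, SE 0.407, adjusted p = 0.947). Without it the difference was 0.39, higher with Ang II. Igfbp5, which binds to the matrix, showed the same picture at 59.8, 123 and 64.4 CPM with saline, 64.2, 60.4 and 55 CPM with Ang II and 61.2, 74.2 and 63.3 CPM with NaBu. Igfbp6 was between 5.49 and 12.8 CPM over the 9 libraries, and Igfbp7 between 142 and 214 CPM. With saline replicate 1 as the only saline library all 4 were higher with Ang II, at a median of 0.27.

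**Figure D3:**
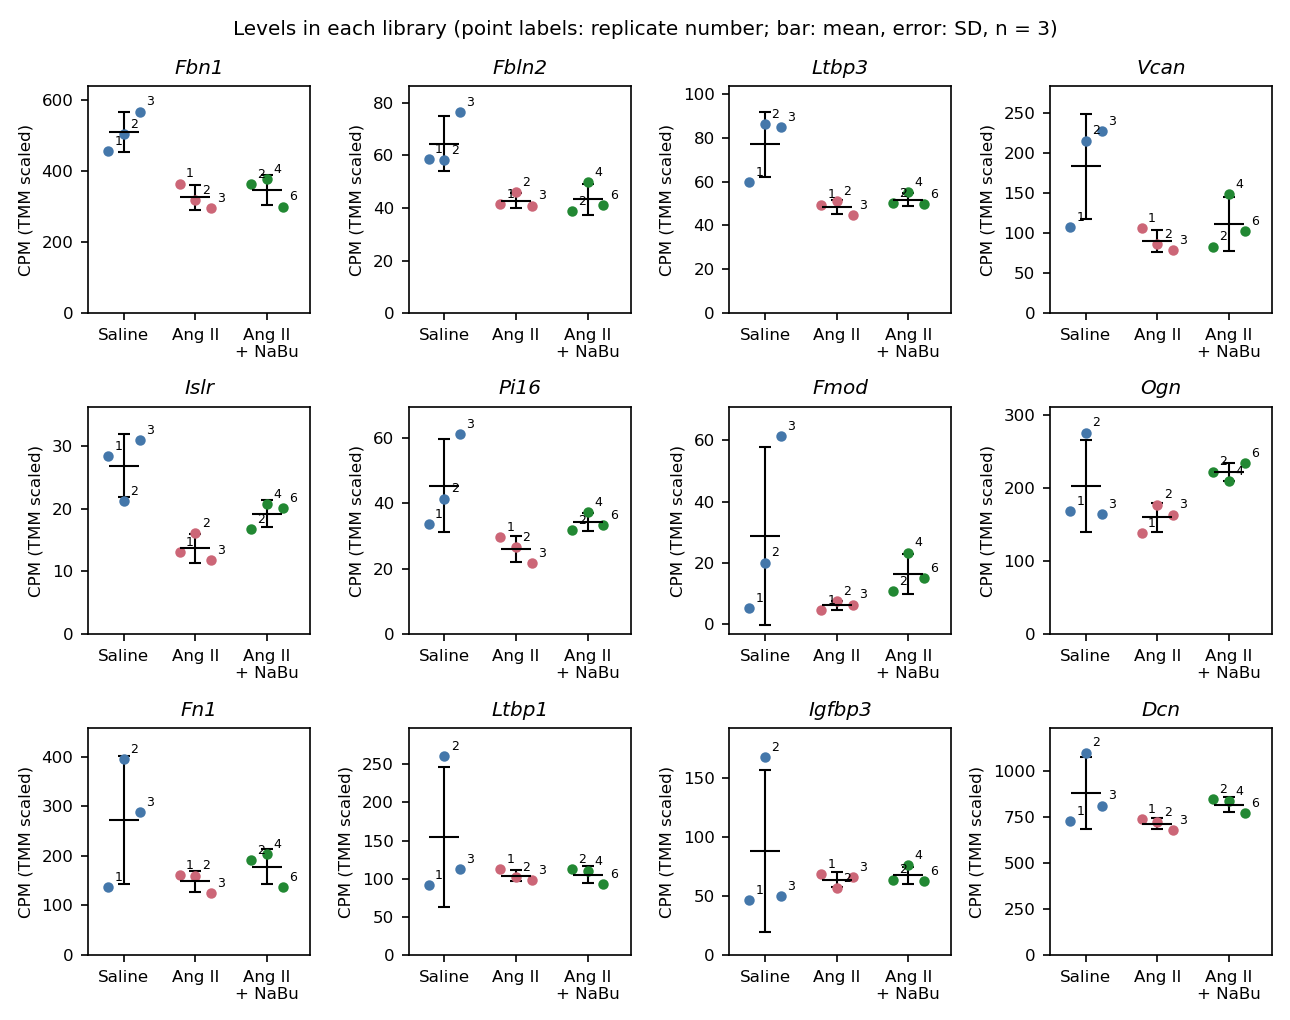
CPM of 12 of the genes in each library (points, labelled with the replicate number), with the mean and SD of each group (n = 3). Fbn1, Fbln2, Ltbp3 and Islr have all saline points above all Ang II points, while Fn1, Ltbp1 and Igfbp3 have saline replicate 1 among or below the Ang II points and replicate 2 far above.

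The NaBu group was next set against Ang II, both groups having received the hormone. All 8 proteoglycans had a higher mean with NaBu than in the other group. Their median log2 difference was 0.19, where the median of all genes was -0.02. They did so also with upper-quartile scaling (median 0.15), DESeq2 size factors (0.20) and total count scaling (0.08, where the median of all genes moved to -0.13), and 6 of 8 with the highest transcript per gene. None was called. Over all 38 genes, 25 were higher and 13 lower with a median of 0.08, where 52.7% of all genes were lower, and with total count scaling 14 were higher and 24 lower. edgeR called 0 of 38 genes and 1.6% of all genes. At an unadjusted p under 0.05 there were 2 of the 38 genes and 22.4% of all genes, so the share among these genes was below the background. DESeq2 called 0 of the 38 as well, and 9.83% of all genes. The groups did not overlap for 6 of the 38 genes, all higher with NaBu, where 18.1% of all genes were higher in this way.

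Fmod had the largest difference of the 38. It was at 4.52, 7.31 and 6.26 CPM in the Ang II libraries and 10.6, 23.3 and 14.9 CPM in NaBu replicates 2, 4 and 6, without overlap (16.3 ± 6.46 against 6.03 ± 1.41 CPM; log2 1.43, SE 0.677, adjusted p = 0.245). Ogn (osteoglycin, also called mimecan) was at 139, 178 and 164 CPM with Ang II and 223, 210.3 and 234 CPM with NaBu (log2 0.47, SE 0.189, adjusted p = 0.181), and its NaBu mean was also above that of saline. When only these 2 groups were fitted, Fmod (adjusted p = 0.020) and Ogn (adjusted p = 0.0233) were called, where edgeR called 11.9% of all genes. Ogn was also called without saline replicate 2 (adjusted p = 0.0236, 9.43% of all genes), and both were without saline replicates 2 and 3 (10.4%). Islr was at 13.1, 16.2 and 11.8 CPM with Ang II and 16.7, 20.8 and 20.1 CPM with NaBu (log2 0.49, SE 0.172, adjusted p = 0.137), between Ang II and saline. Pi16 was at 29.7, 26.5 and 21.6 CPM with Ang II and 31.8, 37.2 and 33.4 CPM with NaBu (log2 0.40, SE 0.201, adjusted p = 0.278). Decorin transcripts (Dcn) were at 739, 722 and 679 CPM with Ang II and 847, 836 and 769 CPM with NaBu (log2 0.20, SE 0.146, adjusted p = 0.464), and Fbln1, a fibulin of vessel walls and valves, at 83.4, 81.6 and 74.4 CPM with Ang II and 84.7, 99.3 and 84.7 CPM with NaBu. Elastic fibre genes with the saline libraries on top had NaBu values that overlapped those of Ang II: Fbn1 was at 363, 378 and 300 CPM with NaBu, and Ltbp3 at 50.2, 55.4 and 49.8 CPM.

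NaBu replicate 4 was the highest of the 3 NaBu libraries for 24 of the 38 genes. It was at 23.3 CPM for Fmod and 149 CPM for Vcan, against at most 14.9 and 102 CPM in the other NaBu libraries. Genes of activated fibroblasts were listed under 13 symbols, of which 12 were found and 11 were at 1 CPM or more. The symbol not found, Ccn2, names the same gene as Ctgf, which was found. Of the 11 genes, 10 had a higher mean with NaBu than with Ang II (median log2 0.82). The sum over the 12 found was 235, 457 and 574 CPM in saline replicates 1, 2 and 3, 215 to 226 CPM with Ang II, and 248, 336 and 286 CPM in NaBu replicates 2, 4 and 6. Postn (periostin) was at 13.2, 14.8 and 91.7 CPM with saline and 11.4, 39.5 and 22.2 CPM with NaBu, and Thbs4 (thrombospondin-4) at 2.79, 12 and 81.6 CPM with saline and 11.8, 34 and 17.3 CPM with NaBu. Both were highest in the libraries that were highest for Fmod, and both were chosen after their values were seen. The order of Fmod among the saline and among the NaBu libraries was shared by 5 of the 11 genes (Comp, Ltbp2, Postn, Thbs4 and Tnc) and not by the other 6, among them Acta2 at 58.9, 219 and 114 CPM with saline and 78.3, 65.4 and 71.5 CPM with NaBu. The list of valve and cartilage markers summed to 47.1 to 106 CPM with saline, 49.2 to 53.3 CPM with Ang II and 57.5 to 69.1 CPM with NaBu, with 7 of 10 markers at 1 CPM or more and Matn3 listed at 0 in all libraries. Their part in the results was not tested.

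**Figure D4:**
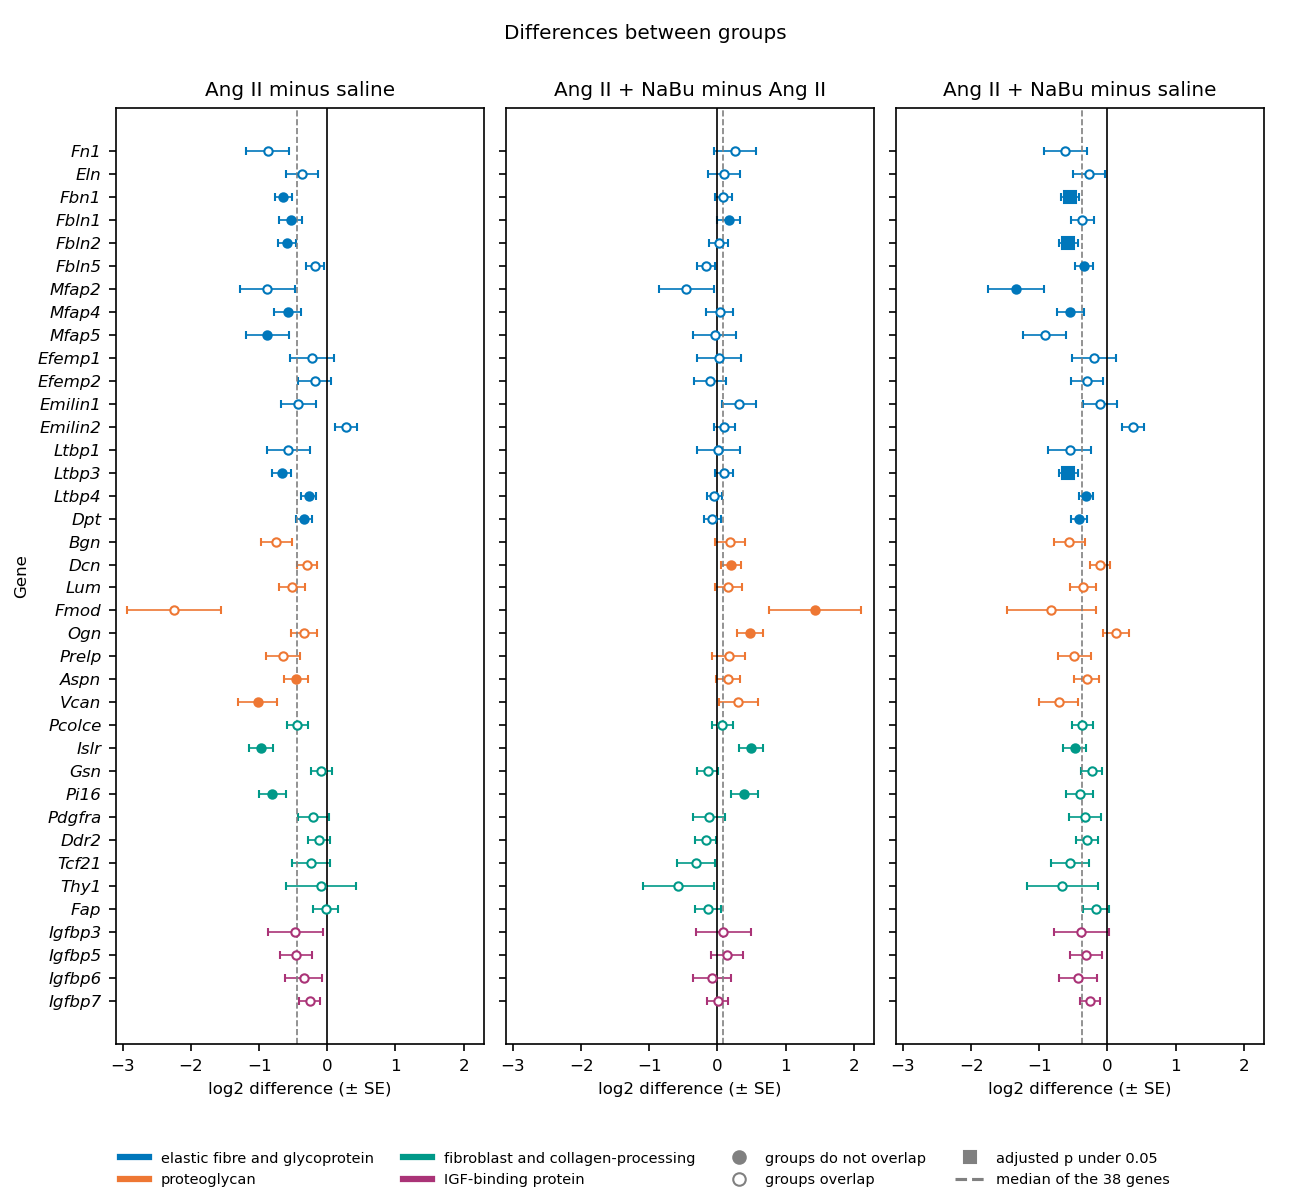
Log2 difference with its SE for each of the 38 genes in the 3 comparisons, coloured by class; filled symbols mark groups that do not overlap, squares an adjusted p under 0.05, and the dashed line the median of the 38 genes. The left and right panels lie mostly below 0, with medians of -0.45 and -0.38, and share the saline libraries.

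The comparison of NaBu with saline combines both agents and uses the same saline libraries as the first comparison. Here 3 of the 38 genes passed the test, all lower with Ang II plus NaBu, while edgeR called 5.06% of all genes and 2.05% as lower. Fbn1 fell to 347 ± 41.5 CPM from 510.3 ± 55.6 CPM (log2 -0.56, SE 0.131, adjusted p = 0.0413). Fbln2 fell to 43.3 ± 5.87 CPM from 64.5 ± 10.6 CPM (log2 -0.57, SE 0.137, adjusted p = 0.0422). Ltbp3 fell to 51.8 ± 3.09 CPM from 77 ± 14.9 CPM (log2 -0.57, SE 0.138, adjusted p = 0.0441). All 3 encode proteins of the microfibril, and in each no NaBu library reached the lowest saline library. With only the highest transcript of each gene none of the 3 was called, and the difference turned to 0.32 for Fbln2 and 0.028 for Ltbp3. The calls did not survive the loss of a library: without any 1 of the 9 libraries Fbn1 and Fbln2 were no longer called, and Ltbp3 was called only without saline replicate 1, together with Bgn, Fn1 and Mfap2 (2.61% of all genes). None of the 38 was called when only these 2 groups were fitted (0.0596% of all genes). DESeq2 called 8 of the 38, all lower, where it called 13% of all genes. With saline replicate 1 as the only saline library the differences were -0.40 for Fbn1, -0.43 for Fbln2 and -0.21 for Ltbp3.

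Over all 38 genes 36 had a lower mean with NaBu than with saline, with a median log2 difference of -0.38 against -0.05 for all genes, of which 55.3% were lower. Without saline replicate 2, 29 were lower and the median was -0.21; Dcn, Efemp1, Eln, Igfbp3, Igfbp5, Ltbp1 and Pdgfra turned to higher, and without saline replicate 3 Fmod did. The groups did not overlap for 9 of the 38 genes, all lower, where 14.1% of all genes were lower in this way. An unadjusted p under 0.05 was reached by 14 of the 38 and by 24.6% of all genes. Mfap2 was at 2.97, 10.8 and 5.89 CPM with saline and 2.76, 2.59 and 2.41 CPM with NaBu (log2 -1.34, SE 0.409, adjusted p = 0.0807), and Mfap4 at 40.6, 45.3 and 73.8 CPM with saline and 39.2, 34.8 and 35.3 CPM with NaBu (log2 -0.55, SE 0.199, adjusted p = 0.128). The 2 genes with higher means were Emilin2 and Ogn. In 23 of the 38 genes the mean of Ang II was the lowest of the 3 groups, the mean of saline the highest and that of NaBu between them. In 13 NaBu was the lowest and saline the highest. These orders were not counted over all genes. With total count scaling, 14 of the 38 were higher and 24 lower with NaBu than with Ang II, where the median of all genes moved to -0.13. With saline replicate 1 as the only saline library the proteoglycans had a median of 0.19 and 7 of 8 were higher with NaBu, whereas it was -0.15 for the elastic fibre class.

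Sequences upstream of the called genes are shown because these genes passed the test together. They are the 250 bases before the gene's start in RefSeq's annotation of the rat build GRCr8, matched by symbol, which gave a window for 30 of the 38 genes; the deposited tables hold no coordinates. The Fbn1 window is not printed because the RefSeq start of that gene lies at a start codon. Capitals mark the GC box GGGCGG (bound by Sp1-type factors) on either strand, the only one of 5 searched motifs found in these 2 windows.
Fbln2 (chr4:125261409-125261658, plus strand): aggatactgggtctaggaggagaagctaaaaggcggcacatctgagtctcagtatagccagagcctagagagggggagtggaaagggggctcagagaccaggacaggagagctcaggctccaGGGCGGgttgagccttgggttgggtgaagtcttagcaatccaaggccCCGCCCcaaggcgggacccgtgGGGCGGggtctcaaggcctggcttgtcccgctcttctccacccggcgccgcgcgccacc
Ltbp3 (chr1:212458955-212459204, plus strand): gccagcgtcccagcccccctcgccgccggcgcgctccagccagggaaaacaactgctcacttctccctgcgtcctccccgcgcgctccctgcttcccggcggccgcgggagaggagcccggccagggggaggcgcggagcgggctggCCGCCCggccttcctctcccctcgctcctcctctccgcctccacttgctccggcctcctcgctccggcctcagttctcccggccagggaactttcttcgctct

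The Fbln2 window held 3 GC boxes and the Ltbp3 window 1. The GC box, or its reverse complement CCGCCC, was found in 13 of the 30 windows (43.3%) and in 30.5% of 33469 windows of all genes. The bases G and C made up 64% of the Fbln2 window and 74% of the Ltbp3 window. Their median was 58.4% over the 30 windows and 51.2% over all genes. The SMAD-binding letters CAGAC were in 16 of the 30 windows and 42.9% of all, the AP-1 site TGANTCA in 2 and 6.34%, the TEAD site CATTCC in 1 and 12.1%, and TATAAA in 2 and 12.9%. All were searched on both strands, and no 2 of these motifs shared bases in the printed windows. The Fbn1 window, not printed but counted among the 30, held 0 GC boxes and 1 CAGAC match. A match is a description of the letters and not of a bound factor.

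Of the 38 genes 14 had a single transcript in the tables and 24 had several, up to 11 for Fn1. For part of the 24 the split between transcripts was unstable. In 12 of the 24 the share of the main transcript moved by more than 20 percentage points between libraries of 1 group. Ltbp3 transcript NM_001191561.1 held 44.6%, 28.1% and 89.6% of the gene's estimated counts in saline replicates 1, 2 and 3. Efemp1 transcript NM_001012039.1 held 92.2%, 31.9% and 49.2% in the Ang II libraries. Fbn1 was steady, with 92.1% on average in transcript NM_031825.1. For Vcan, NM_053663.1 held 87.2%, 65.4% and 60.2% with saline and 47.9%, 60.2% and 64.1% with NaBu. The method of assigning counts to transcripts is not given in the sources used here, and no isoform was compared between groups.

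Genes of related pathways outside the 38 were counted by list. Their calls come from the fit of all libraries and were not checked singly in the alternative fits. In several of those fits the number of calls over all genes fell sharply. Of 22 further elastic fibre and microfibril genes, 18 had a lower mean with Ang II than with saline and none was called. Ltbp2 (log2 -2.59, SE 0.635) and Adamtsl2, a microfibril-binding protein (log2 -1.46, SE 0.23), were at the low end, and Mfap3 (0.15) and Mmrn1 (0.19) at the high end. For NaBu against saline 3 of the 22 fell and 0 rose, where 2.05% of all genes fell and 3.01% rose: Adamtsl2 (log2 -1.48, adjusted p = 0.0156), Adamts10 (-0.65, adjusted p = 0.0156) and Adamtsl4 (-0.50, adjusted p = 0.0363). These 3 genes belong to the ADAMTS family, several members of which bind fibrillin. Adamtsl2 was at 17.7, 31.5 and 22.5 CPM with saline, 8.94, 10.2 and 6.98 CPM with Ang II and 7.9, 7.46 and 10.3 CPM with NaBu, so that saline stood above both treated groups. Adamts10 was also the 1 of the 22 called with NaBu against Ang II, where 0.957% of all genes fell (log2 -0.52, adjusted p = 0.0427).

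Of 24 further proteoglycans none was called in any comparison, and with NaBu against Ang II 12 were higher and 12 lower. Epyc (epiphycan, of the decorin family) had the largest differences, at 1.23, 28.9 and 5.39 CPM with saline, 0.482, 0 and 0.139 CPM with Ang II and 0.711, 4.09 and 2.29 CPM with NaBu, so that saline replicate 2 was high. Of 35 genes of glycosaminoglycan synthesis, 1 fell with NaBu and 0 rose, both against Ang II and against saline, which is close to the shares of 0.957% and 2.05% of all genes that fell and no result about the list. It was Chpf2, a chondroitin polymerising enzyme, at 16.6, 15.9 and 14.9 CPM with saline, 17.4, 17.8 and 19.9 CPM with Ang II and 9.65, 10.9 and 11.9 CPM with NaBu (adjusted p = 0.0372 against Ang II and 0.0363 against saline). Of 14 matrix-binding integrins 1 rose with NaBu against saline, where 3.01% of all genes rose: Itgb8, whose product binds latent TGF-beta, was at 37.5, 39.1 and 35.1 CPM with saline, 35.9, 39.6 and 39.8 CPM with Ang II and 46.5, 64.4 and 55.5 CPM with NaBu (log2 0.57, adjusted p = 0.0323). Of 10 further genes of the IGF axis none was called in any comparison. Macrophage markers summed to 339.9 to 446 CPM with saline, 321 to 363 CPM with Ang II and 339 to 375 CPM with NaBu, a sum in which Lyz2 alone, the 1 marker with a higher mean with Ang II, made 96.9 to 147 CPM. Endothelial markers summed to 2120 to 2469, 2159 to 2479 and 1815 to 2149.7 CPM, and all 10 had a lower mean with NaBu than with Ang II (median log2 -0.23). Smooth muscle and pericyte markers summed to 3119 to 3503, 2947 to 3306 and 3689.9 to 4092 CPM. That sum follows Des, also a cardiomyocyte gene, at 1301, 1589 and 1519 CPM with Ang II and 2459.6, 2286 and 2465 CPM with NaBu, whereas 8 of the 10 markers had a lower mean with NaBu than with Ang II (median -0.16) and 8 than with saline (median -0.11). Of the 12 cardiomyocyte markers 11 had a higher mean with NaBu than with Ang II (median 0.39). Epicardial and mesothelial markers summed to 41.6 to 50.7, 44.5 to 46.4 and 33.4 to 38 CPM. The part of these cells in the values of the 38 genes was not tested.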

How the data were processed

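RNA-seq of rat left ventricle was analysed from 3 deposited tables, 1 per group, with 1 value per transcript and library and a gene name, per the file headers. The headers name no unit, and the deposited values were taken as estimated counts because all were whole, summed to unequal totals and were in excess at and just above multiples of 4. A stray line-end character in the last column of the saline table was stripped. No column was left out. Bowtie 0.12.2 and the mouse build mm8 are named in the submitters' processing notes, although the transcripts carry RefSeq accessions of rat genes. For the counting tool and strand setting the sources used here give nothing. Each table holds 1 group, so processing and group cannot be told apart. The NaBu columns are numbered 2, 4 and 6 and carry no number that pairs them with the titles.

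Transcript values were summed by gene name and tested with edgeR 4.0.16 in R 4.3.3 (TMM, filterByExpr, quasi-likelihood, all 3 groups in 1 fit, 15467 genes, prior count 0.125, calls at an adjusted p under 0.05). SEs were obtained as the log2 difference divided by the square root of F. Levels are CPM scaled by TMM (factors 0.887 to 1.14). A log2 difference, SE and adjusted p are printed for called genes, for up to 5 genes per comparison with the largest difference among those without overlap, and for 8 principal genes in the comparison of Ang II with saline, and genes outside the 38 are named if called or at either end of their list. The alternatives were other scalings, DESeq2 1.42.0, no filter, values divided by 4, the highest transcript, 2-group fits and libraries left out. The scripts were tested on simulated counts. The genes and lists were chosen with earlier results of these data known, so they give no independent support.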

Additional observations from a re-analysis of the deposited data

How the results depend on the processing

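The number of calls depended on the test and on single libraries in every comparison. With each library left out in turn, the genes called over the whole table numbered 0 to 7 for Ang II against saline, 1 to 1482 for NaBu against Ang II and 6 to 1303 for NaBu against saline, from 0, 248 and 782 with all libraries. Of the 38 genes, 0 to 2, 0 to 1 and 0 to 4 were called in these fits, and their median log2 difference ran from -0.60 to -0.22, 0.0077 to 0.14 and -0.53 to -0.21. For NaBu against Ang II, 1 to 5 genes were called without any 1 of the 6 Ang II or NaBu libraries, 44 without saline replicate 1 and 1482 without saline replicate 2. For NaBu against saline, 6 were called without NaBu replicate 6, 9 without replicate 2 and 111 without replicate 4. In the order of the 3 comparisons, DESeq2 called 57, 1521 and 2007 genes, with 6, 0 and 8 of the 38. The highest transcript per gene gave 3, 5 and 21 genes and 0 of the 38 in each. Only the 2 groups compared gave 1, 1802 and 9 genes, with 0, 2 and 0 of the 38. Without saline replicates 2 and 3, 11, 1695 and 109 genes were called, with 0, 2 and 0 of the 38, and the medians of the 38 genes were 0.0023, 0.08 and 0.070. Total count scaling gave 0, 4 and 412 genes, with 0, 0 and 1 (Fbln2) of the 38. Removing the filter, dividing by 4, upper-quartile scaling and DESeq2 size factors left the calls among the 38 genes at 0, 0 and 3 (Fbn1, Fbln2 and Ltbp3 each time). The cause of these shifts was not tested. Fits with libraries left out also held fewer samples.

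Signs turned for 19 of the 38 genes for Ang II against saline without saline replicates 2 and 3. Such turns were made likely by the removal, because these libraries held the highest levels. Genes printed because their groups do not overlap could hardly turn when libraries were left out, so the printed differences understate such turning. Among the printed differences the following turned. For Ang II against saline without replicates 2 and 3 these were Fn1 (0.12), Eln (0.11), Bgn (0.0039), Lum (0.018) and Igfbp3 (0.46). Without saline replicate 2, Eln (0.010) and Igfbp3 (0.39) turned, and over all single left-out libraries Eln ran from -0.56 to 0.010 and Igfbp3 from -0.78 to 0.39. For NaBu against saline the highest transcript turned Fbln2 (0.32) and Ltbp3 (0.028). With the replicate number as a block, saline and Ang II libraries gave 2 called genes, 0 of the 38 and a median of -0.40. Same-numbered libraries did not deviate together (r of -0.05, -0.06 and -0.01 across genes), and differently numbered ones gave r of -0.03 to 0.07. With 3 libraries per group, this cannot tell whether the numbers pair the samples. The NaBu numbers match too few others for such a fit. Genes near 1 CPM, such as Thy1, rest on few fragments.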
